A study of Mus musculus with 4 samples.

Results

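ATAC-seq of mouse CD4+ T cells found 93679 merged open regions, of which 47767 were called as peaks in all 4 libraries, and the 500 of these shared regions that fell furthest in rank when IL-4 was added are described here. In each library, every shared region was given the percentile of its peak height among all shared regions, and the score of a region was the lower of its percentiles without IL-4 minus the higher of its percentiles with IL-4. The regions were chosen by this score, as the 500 highest on assembled chromosomes, 1.05% of the 47710 shared regions there. The fall itself is therefore how they were selected, not a finding. What the selection did not use is where the regions lie, their sequence and the genes near them.

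Naive CD4+ T cells (CD62LhighCD44lowCD25-) of 7-week-old male C57BL/6 mice were sorted from spleen and cultured for 48 h, and 50000 cells per library were taken for ATAC-seq. In all cultures, antibodies to CD3 at 5 µg/ml and to CD28 at 1 µg/ml were combined with 5 ng/ml of TGF-β1 and 10 ng/ml of mouse IL-2, conditions that induce regulatory T cells (iTreg). The 2 iTreg+PBS libraries had no IL-4 and the 2 iTreg+IL-4 libraries had IL-4 at 15 ng/ml. The mice were wild type, and the libraries of a group are described as biologically independent pooled samples, so animals within a library are not told apart.

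ATAC-seq uses a transposase that cuts DNA where nucleosomes leave it accessible, so promoters and enhancers in use appear as peaks. In T cells given TGF-β and IL-2, Smad proteins and STAT5 act with factors switched on by the T cell receptor, such as NFAT, AP-1 and NF-kB, to open regulatory DNA. IL-4 acts through STAT6, which prefers a palindrome with a wider gap than the one STAT5 binds, and raises GATA3, the main factor of type 2 helper T cells. RUNX, TCF/LEF and T-box factors are further regulators of T cell enhancers, and T-bet, a T-box factor, directs the type 1 (Th1) programme that IL-4 is known to oppose.

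Motifs searched in the 200 bases around each region's centre were STAT5-type TTCNNNGAA, STAT6-type TTCNNNNGAA, RUNX TGTGGTT, NFAT TGGAAA, TCF/LEF CTTTGA, NF-kB GGGANTTTCC, T-box AGGTGTGA and NBRE AAAGGTCA, the element of Nr4a receptors, among 29 motifs in all, each on both strands. The sequences below, from GRCm38 (mm10) as held by RefSeq and written on the forward strand, are those of 4 of the highest-scoring regions and of 4 regions near genes of the lists described later. They show what such a region holds, including regions without any of these motifs, and each is named by the gene of its nearest coding start site. Capitals mark matches to STAT5-type, RUNX, NFAT, TCF/LEF, NF-kB, T-box and NBRE motifs, the 7 that were at least 1.4 times as frequent in the 500 regions as in all shared regions and stood in at least 5 of the 500.
Klri2 (chr6:129743499-129743698): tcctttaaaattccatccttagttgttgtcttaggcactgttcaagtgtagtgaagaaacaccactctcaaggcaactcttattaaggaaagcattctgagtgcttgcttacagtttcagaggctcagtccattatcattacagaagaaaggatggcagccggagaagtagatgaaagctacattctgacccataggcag
Kcnh5 (chr12:75153190-75153389): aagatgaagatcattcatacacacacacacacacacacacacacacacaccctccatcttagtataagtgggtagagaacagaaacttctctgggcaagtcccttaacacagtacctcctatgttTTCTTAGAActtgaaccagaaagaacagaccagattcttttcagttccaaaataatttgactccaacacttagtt
Cds2 (chr2:132280967-132281166): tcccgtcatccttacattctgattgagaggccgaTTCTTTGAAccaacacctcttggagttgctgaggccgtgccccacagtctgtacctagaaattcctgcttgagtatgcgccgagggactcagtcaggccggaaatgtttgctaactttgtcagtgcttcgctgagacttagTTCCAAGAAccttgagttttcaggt
Slc30a4 (chr2:122680098-122680297): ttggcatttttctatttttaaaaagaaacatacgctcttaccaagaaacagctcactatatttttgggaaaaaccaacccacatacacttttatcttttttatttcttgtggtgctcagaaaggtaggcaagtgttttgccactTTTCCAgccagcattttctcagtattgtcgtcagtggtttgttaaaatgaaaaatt
Il12rb2 (chr6:67424962-67425161): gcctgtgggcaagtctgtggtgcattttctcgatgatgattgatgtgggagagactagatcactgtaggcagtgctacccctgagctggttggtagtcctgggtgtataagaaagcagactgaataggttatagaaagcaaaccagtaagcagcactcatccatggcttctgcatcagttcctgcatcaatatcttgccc
Foxp1 (chr6:99302457-99302656): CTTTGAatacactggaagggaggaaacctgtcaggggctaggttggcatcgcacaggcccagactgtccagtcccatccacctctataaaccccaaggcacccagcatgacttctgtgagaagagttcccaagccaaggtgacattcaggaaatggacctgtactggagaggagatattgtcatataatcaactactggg
Nkg7 (chr7:43436693-43436892): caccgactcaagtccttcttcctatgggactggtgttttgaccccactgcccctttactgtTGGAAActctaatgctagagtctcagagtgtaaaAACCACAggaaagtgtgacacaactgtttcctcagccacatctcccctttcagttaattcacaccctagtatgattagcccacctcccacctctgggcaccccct
Cd8a (chr6:71352172-71352371): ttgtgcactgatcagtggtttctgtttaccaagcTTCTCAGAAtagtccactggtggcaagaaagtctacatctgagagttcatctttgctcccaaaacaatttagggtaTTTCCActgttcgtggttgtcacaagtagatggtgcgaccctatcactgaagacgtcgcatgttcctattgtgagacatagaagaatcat
The window near Cds2 held 2 STAT5-type matches, the upstream one overlapping a TCF/LEF match, and those near Kcnh5 and Cd8a held a STAT5-type match each. An NFAT match stood near Slc30a4, Nkg7 and Cd8a, and a RUNX match near Nkg7. The windows near Klri2 and Il12rb2 held none of the 7 motifs, so the highest-scoring region of all was without them. A match is a run of letters and does not show that a factor was bound.

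Before the values of the regions, some facts on the libraries bear on how far they can be read. Between 56645 peaks (iTreg+PBS replicate 2) and 78670 peaks (iTreg+IL-4 replicate 1) were listed per library, and the number of reads is unknown. Over all shared regions, the percentiles of iTreg+PBS replicate 1 correlated more closely with those of iTreg+IL-4 replicate 1 (r = 0.976 across regions) than with those of iTreg+PBS replicate 2 (r = 0.925). Those of iTreg+IL-4 replicate 2 correlated about equally with those of iTreg+IL-4 replicate 1 (r = 0.952) and iTreg+PBS replicate 2 (r = 0.951). The median absolute difference between the iTreg+PBS libraries was 5.45 percentage points and that between the iTreg+IL-4 libraries 4.53, against 2.71 between the means of the groups. A mean of 2 libraries varies less than 1 library, so these sizes are given side by side only. All 10 T cell markers examined had a peak within 1 kb of a start site in every library, whereas neither of the 2 natural killer cell markers had one in any, and B cell markers had one at 1 to 3 of 5 genes and myeloid markers at 2 or 3 of 5. Erythroid markers had one at 1 of 3 genes and markers of stroma and epithelium at 2 of 4 in every library. Bulk peaks cannot tell fewer cells with an open region from less accessibility in each cell.

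By the way they were chosen, all 500 regions had both iTreg+PBS percentiles above both iTreg+IL-4 percentiles, a property that 12.0% of all shared regions had. The opposite order was held by 13.7%. The median percentile of the 500 was 36.4 in iTreg+PBS replicate 1 (quartiles 24.3 and 46.3) and 37.9 in replicate 2 (26.9 and 48.3). With IL-4 it was 20.1 in replicate 1 (11.4 and 32.8) and 19.5 in replicate 2 (9.99 and 32.6). The score rewards replicates that lie close, and single regions still differed by up to 38.6 percentage points between the iTreg+PBS libraries and up to 25.3 between the iTreg+IL-4 libraries. A mean percentile under 50 was found for 90.8% of them, against 50.8% of all shared regions, so that these were mostly modest peaks without IL-4 and weak but still called peaks with it.

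**Figure D1:**
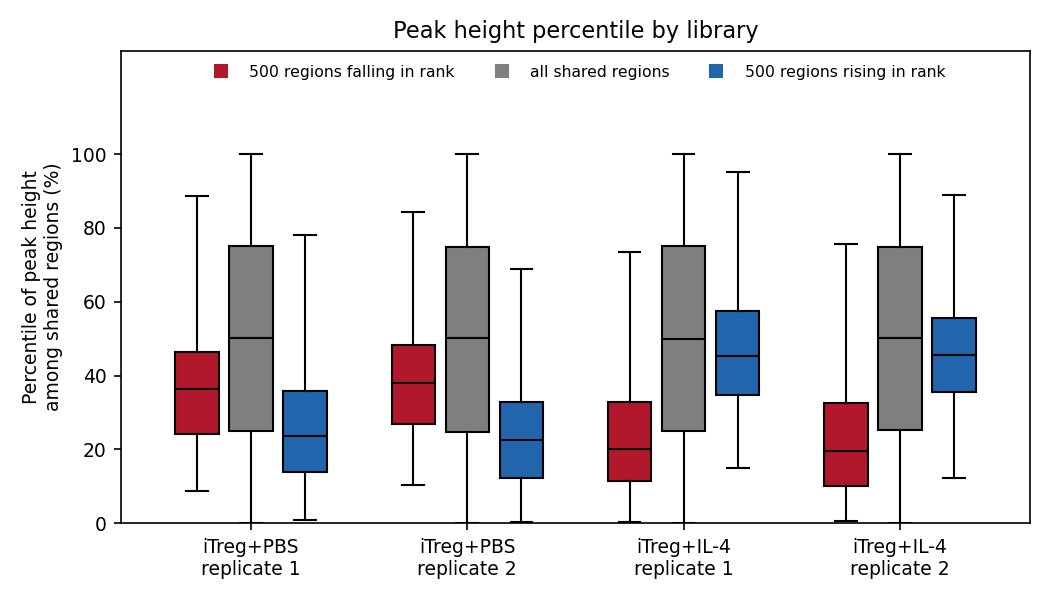
Percentile of peak height among shared regions in each of the 4 libraries (boxes, median and quartiles; whiskers, lowest and highest value) for the 500 falling regions, all shared regions and the 500 regions that rose furthest. The falling regions have medians of 36.4 and 37.9 in the iTreg+PBS libraries and 20.1 and 19.5 in the iTreg+IL-4 libraries, by the way they were chosen.

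On the scale of height itself, the median was 67 and 29 overlapping fragments in iTreg+PBS replicates 1 and 2, and 43 and 32 in iTreg+IL-4 replicates 1 and 2. Raw heights were not ordered by group. Heights were lowest in iTreg+PBS replicate 2, with a median of 39 over all shared regions against 97, 94 and 68 in the other libraries. Both raw heights without IL-4 were above both with IL-4 in 4.2% of the 500 regions and in 0.908% of all shared regions. Divided by the library's own median, the heights of the 500 had medians of 0.691 and 0.744 without IL-4 but 0.457 and 0.471 with IL-4. The fold of these relative heights, without over with IL-4, had a median of 1.49 (quartiles 1.39 and 1.62) and reached 2.77. All 500 also kept the groups apart in the percentile of −log10 q, the other value of each peak, as did 12.7% of all shared regions, but that value rests on the same reads.

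The scores of the 500 ran from 7.11 to 23.5 percentage points, with a median of 8.98. Just inside the threshold stood regions near Nr2c2 and Sh2d4a, both at 7.12, and a region at the T cell receptor alpha V segment Trav13d-1, at 7.11. Just outside stood regions near Nacc2 at 7.11, Rasa1 at 7.09 and Utp14b at 7.08. The regions at Trav13d-1 and near Nacc2 had the same score, and position alone put the former inside. The 500 therefore form the end of a continuous range and not a separate class.

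The highest scores belonged to weak or modest peaks at genes of varied function. The region with the highest score (chr6:129743330-129743868) lay 3.1 kb upstream of the start of Klri2, a killer cell lectin-like receptor gene of lymphocytes. Its percentile was 44.0 and 43.6 in the iTreg+PBS libraries and 20.1 and 11.2 in the iTreg+IL-4 libraries, with heights of 82, 33, 43 and 25. The next, with percentiles of 36.4 and 34.6 against 11.4 and 8.9, lay at the promoter of Fam81a (chr9:70141041-70141833). It stands out by its GC content of 79.5%, where the median of the 500 windows was 48%.

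A region in an intron of Kcnh5 (chr12:75152984-75153595), which encodes a voltage-gated potassium channel, had percentiles of 32.7 and 36.3 without IL-4 and 9.7 and 10.0 with it. An intronic region of Cds2 (chr2:132280879-132281255), an enzyme of phosphoinositide synthesis, had 46.7 and 40.9 against 19.2 and 14.7. In each of these regions, the libraries of a group lay within 10 percentage points of one another and the groups lay apart. Beyond the end of the zinc transporter gene Slc30a4, the region at chr2:122679870-122680526 had 39.2 and 39.5 without IL-4 and 17.5 and 14.7 with it. A second region near Slc30a4 (chr2:122672765-122673520) was also among the 500, at 44.9 and 47.2 against 26.4 and 28.5.

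The widest difference between group means among the 10 highest scores, 33.2 percentage points, was in an intron of the phosphatase gene Ptprk (chr10:28375101-28375657), 293 kb from the start of Themis, a gene of T cell receptor signalling in thymocytes. Its percentiles were 42.1 and 51.3 without IL-4 but 6.4 and 20.7 with IL-4. Here the replicates differed more, and replicate 2 was the higher in both groups. The region in the ETS factor gene Etv1 (chr12:38821862-38822247) had 29.3 and 29.0 against 8.0 and 4.9. The region upstream of Adra2a, the alpha-2A adrenergic receptor gene, within an intron of Shoc2 (chr19:54010732-54011552), had 28.0 and 40.9 against 5.6 and 7.8. Regions near D17Wsu92e (chr17:27814526-27814984) and Pced1b (chr15:97499229-97499635) complete the list, the former being the tallest of the 10 in all libraries. STAT5-type matches stood in the windows of Kcnh5, Cds2, Themis, Pced1b, Etv1 and Adra2a.

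**Figure D2:**
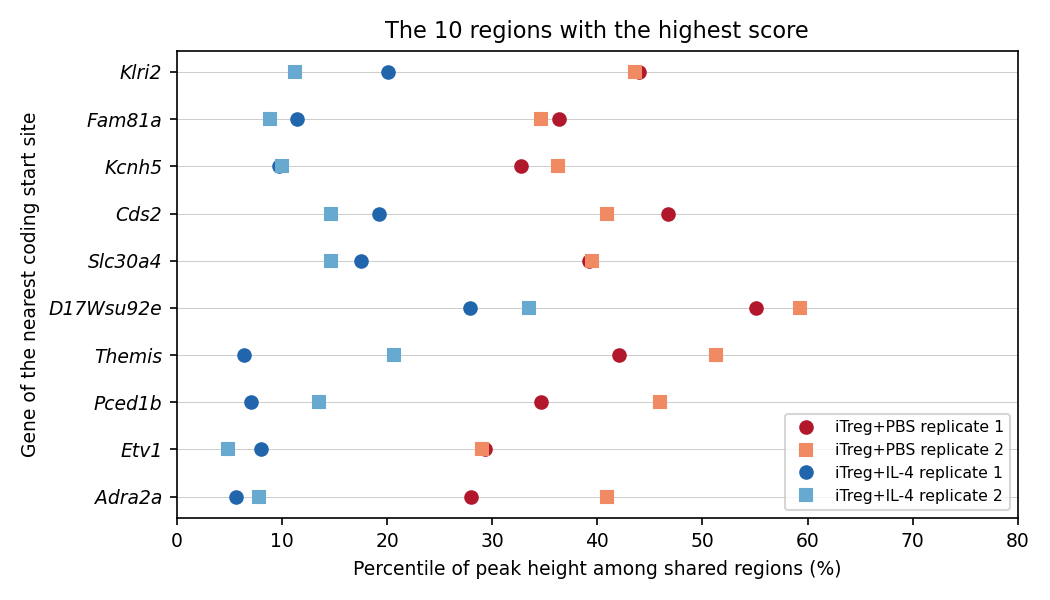
Percentile of peak height in each library (points) for the 10 regions with the highest score, named by the gene of the nearest coding start site. Points of the iTreg+PBS libraries lie right of those of the iTreg+IL-4 libraries in all 10, as the selection requires. For Klri2 they lie at 44.0 and 43.6 against 20.1 and 11.2.

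The same measure was read in libraries that a choice had not used. Regions were chosen as the 500 with the largest difference between a single iTreg+PBS and a single iTreg+IL-4 library and then read in the other pair. When chosen on replicates 1, they had a median difference of 5.22 percentage points in replicates 2 (quartiles -1.63 and 11.9), and 72.2% were above 0, against 49.6% of all shared regions. When chosen on replicates 2, the median in replicates 1 was 1.74 (quartiles -1.97 and 5.71), with 63.0% above 0 against 51.2%. When chosen across replicate numbers, the order turned. Regions chosen on replicate 1 without IL-4 against replicate 2 with it had a median of -21.3 in the remaining pair, with 8.2% above 0 against 53.4% of all shared regions, and those chosen on replicate 2 without against replicate 1 with it had -4.06, with 30.2% above 0 against 45.2%. The sign of the median thus depended on which replicate numbers were set against each other, and these values, which come from the same 4 libraries as the choice of the 500, are a description and support no direction. Membership was as sensitive: scored without iTreg+PBS replicate 1, only 34 of the 500 were again among the 500 highest, and without each of the other libraries 132 to 156 were. With 1 library per group left, none of these values has a test, and what sets the replicate numbers apart was not tested.

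**Figure D3:**
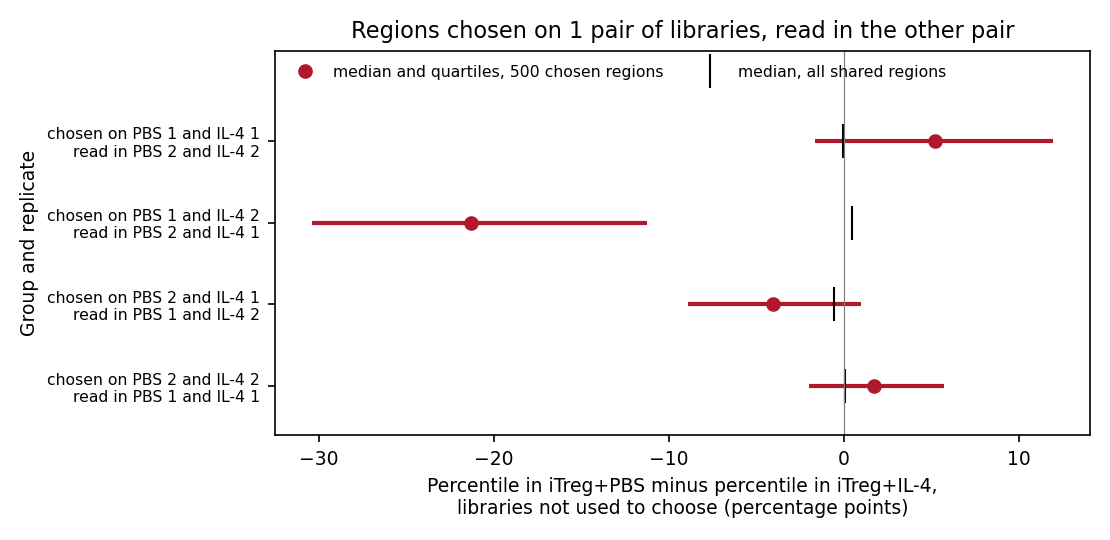
Difference in percentile, iTreg+PBS minus iTreg+IL-4, in the 2 libraries not used to choose 500 regions (points, median; lines, quartiles), with the median of all shared regions as a tick. The medians are 5.22 and 1.74 where the chosen libraries had the same replicate number and -21.3 and -4.06 where they had not.

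The 500 regions lay mostly away from promoters. Within 1 kb of a GENCODE start site stood 61 of them, or 12.2% (95% Wilson interval 9.62 to 15.4), against 29.8% of all shared regions and 6.0% of the 500 regions that rose furthest in rank by the same score with the groups exchanged. Their centres were intronic in 44.0%, against 37.5% of all shared regions, and intergenic in 40.4%, against 29.0%. The median distance to the nearest coding start was 22.7 kb for the 500, 13.1 kb for all shared regions and 28.9 kb for the rising ones. A coding start was over 50 kb away for 27.8% of the 500 and 20.4% of all. All intervals here cover counting error only, and regions of the same libraries are not replicates of the condition. The share within 1 kb depended on the libraries and on the height of the regions. It ranged from 1.8% (without iTreg+PBS replicate 1) to 15.8% (without iTreg+IL-4 replicate 2) when 1 library was left out, and was 25.2% when only the upper 50% of each list was used.

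**Figure D4:**
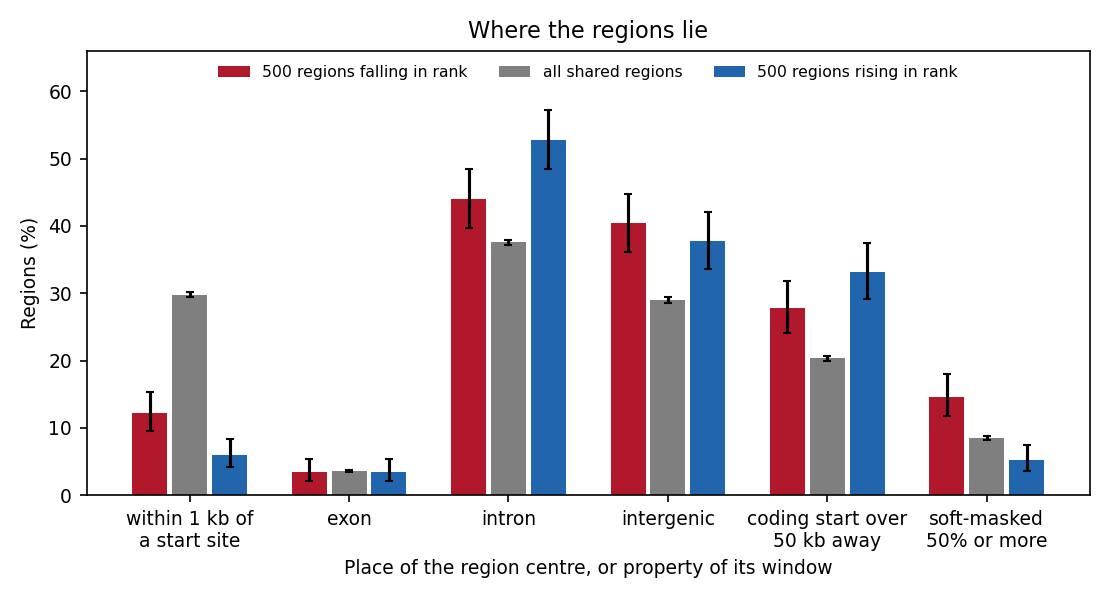
Share of regions by the place of the centre, by distance of the coding start and by soft-masked bases in the 200-base window (bars; error bars, 95% Wilson interval) for the 500 falling regions, all shared regions and the 500 rising regions. The falling regions are within 1 kb of a start site in 12.2%, between the rising regions at 6.0% and all shared regions at 29.8%.

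The windows were also lower in GC and richer in repeats than most. Their median GC content was 48.0%, against 51.0% in all shared regions and 45.0% in rising ones. Of the shared regions with a GC content of 44% or less the 500 made up 1.70%, and of those with 63% or more 0.402%. The median group difference over all shared regions ran the other way, from -0.41 percentage points in the former to 0.37 in the latter. At least 50% of the bases were soft-masked, that is marked as repeats, in 14.6% of the 500 windows (11.8 to 18), against 8.48% of all and 5.2% of rising ones. Over all shared regions, the soft-masked share correlated weakly with the group difference (Pearson's r = 0.168, Spearman's rho = 0.062) and, with the other sign, with the difference of iTreg+PBS replicate 1 minus replicate 2 (r = -0.203, rho = -0.080). Its part in the result was not tested. The regions were somewhat narrower, with a median width of 601 bases against 688.

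Against 1.05% of all shared regions, the 500 made up 0.483% of those on chromosome 19, 0.493% on X (5 of 1014), 1.49% on chromosome 6 and 1.5% on chromosome 13. None of the 54 on Y was among them, too few for that share to show a difference. The 500 regions were spread over 476 nearest coding genes, 453 of which had a single region and 22 a pair. The gene nearest to 3 of them, Olfr1507, lay 356 to 610 kb away: these regions sat at the T cell receptor alpha V segments Trav4d-4, Trav6n-5 and Trav13d-1. Reads from V segments with near-identical copies can be placed ambiguously, so these values are uncertain. Genes with a pair included Klf6, Slc30a4, Hnrnpa3, Il12rb2, Gm7879, Srp14 and Lmntd1. Near Klf6, which encodes a zinc finger transcription factor, the regions lay 195 and 499 kb upstream, and 2 of its 27 shared regions were thus among the 500. Within 50 kb of another of the 500 stood 7.2% of the regions, against 9.8% among the rising ones.

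STAT6-type matches stood in 2.8% of the 500 windows (95% Wilson interval 1.68 to 4.64), in 5.27% of all shared regions and in 27.0% of the rising regions (23.3 to 31.1). STAT5-type matches, which differ only in the gap, stood in 14.2% of the falling windows (11.4 to 17.5), in 8.29% of all shared regions and in 13.6% of the rising ones. The intervals of falling and rising windows overlapped for the STAT5-type motif and lay far apart for the STAT6-type motif. Over 1 kb from start sites, the shares of STAT5-type matches were 15.0% in the falling regions and 9.92% in all shared regions, and those of STAT6-type matches 2.96% and 6.14%. The ratio of falling to all shared regions was 1.52 there and 1.71 among all windows for the STAT5-type motif, and 0.482 and 0.531 for the STAT6-type motif.

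Of the other motifs, some were more and some less frequent than in all shared regions. NFAT matches stood in 23.4% of the 500 windows (19.9 to 27.3), against 15.7% of all and 16.2% of rising regions. RUNX matches stood in 14.2% (11.4 to 17.5), against 8.33% and 8.8%. TCF/LEF matches stood in 18.6%, against 13.3% of all and 19.8% of rising regions, so that they did not set the falling from the rising ones. Over 1 kb from start sites these contrasts with all shared regions were smaller. The shares there were 24.1% against 18.4% for NFAT, 14.8% against 10.5% for RUNX and 19.4% against 15.9% for TCF/LEF. The motifs with few matches were NBRE, in 17 windows or 3.4% (2.13 to 5.38) against 1.10% of all, T-box, in 14 windows or 2.8% (1.68 to 4.64) against 1.15%, and NF-kB, in 9 windows or 1.8% (0.95 to 3.39) against 0.627%. In rising regions these stood at 1.2%, 1.0% and 0.6%. NBRE matches contain the letters of RORE, AGGTCA, which were in 12.4% of the 500 windows and 10.1% of all.

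GATA matches (AGATAA) were in 8.2% of the falling windows, near the 7.14% of all shared regions, and in 21.2% of the rising ones. AP-1 matches (TGANTCA) were in 10.4%, against 10.7% of all and 17.6% of the rising regions. Over 1 kb from start sites AP-1 matches were in 10.3% (7.75 to 13.4) against 13.7% of all and 18.1% of the rising regions. SP/KLF matches (GGGCGG), a promoter motif, were in 10.6% against 20.2% of all, and over 1 kb from start sites in 6.61% against 8.23%. CTCF matches (CCANNAGGNGGC) were in 1.8% (0.95 to 3.39) against 3.32% of all, a share inside that interval. Matches to the ETS motif CGGAAGT were in 0.6% (0.2 to 1.75) against 3.03% of all and 0.4% of rising regions. Over 1 kb from start sites they were in 0.456% (0.125 to 1.65) against 1.33%. KLF matches (GGGTGTG) were in 8.6% (6.45 to 11.4) against 6.15% of all and 5.8% of rising regions.

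**Figure D5:**
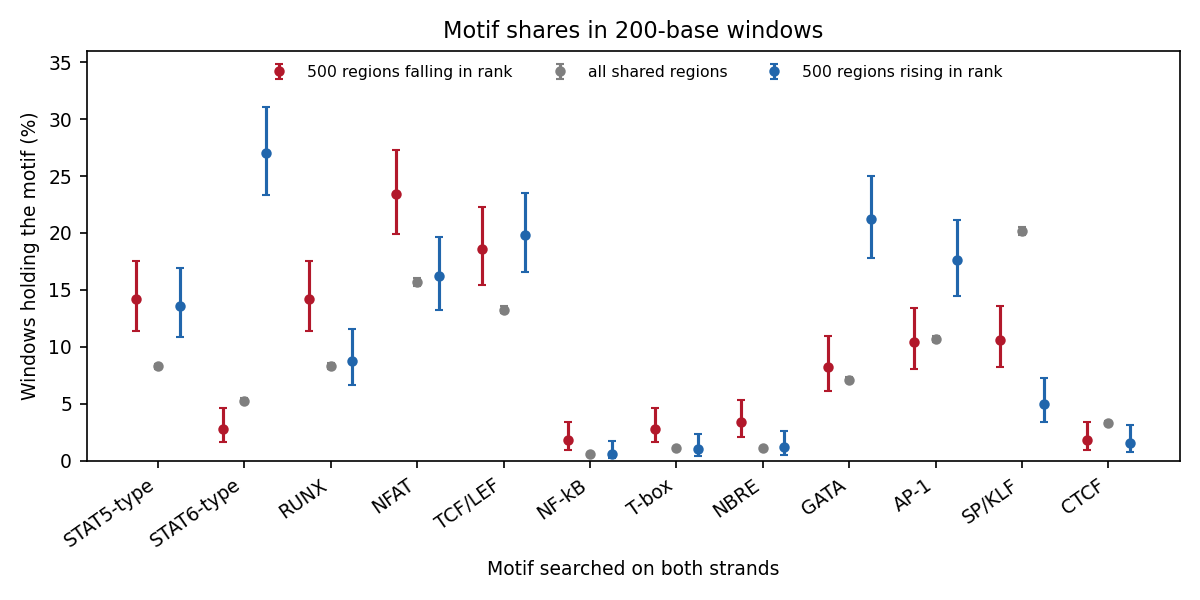
Share of 200-base windows that hold each of 12 motifs on either strand (points; error bars, 95% Wilson interval) in the 500 falling regions, all shared regions and the 500 rising regions. STAT6-type matches are in 2.8% of falling and 27.0% of rising windows, whereas STAT5-type matches are in 14.2% and 13.6%.

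The motif shares were also set out by rank of the score. That of STAT5-type matches was 18% among the 100 highest scores, 14.7% at ranks 101 to 250, 12.4% at ranks 251 to 500, 11.2% at ranks 501 to 1000 and 8.6% at ranks 1001 to 2000. Further down it was 8.77% at ranks 2001 to 5000, 6.69% at ranks 5001 to 20000 and 8.92% below, so that it did not decline steadily over the whole range. The STAT6-type share was 3.0% at ranks 501 to 1000, 4.4% at ranks 1001 to 2000, 3.4% at ranks 2001 to 5000 and 3.32% at ranks 5001 to 20000, within the interval of the 500, and 6.64% below. A low STAT6-type share was therefore not particular to the 500. The RUNX share went from 20% through 14.7% and 11.6% to 13.6% and 10.7% over the same ranks. Of the 9 NF-kB matches, 8 stood at ranks 251 to 500. These shares were also set out by the pair of libraries that chose the regions. In the 4 choices of 500 regions made on a single library per group, STAT5-type matches were in 10.8% to 21.2%, NFAT matches in 22.4% to 30.4% and STAT6-type matches in 2.4% to 4.0%, all on the same side of the shares in all shared regions as in the 500. RUNX matches were in 15.4% and 14.2% of the regions chosen with iTreg+PBS replicate 1 but in 4.8% and 4.2% of those chosen with replicate 2, below the 8.33% of all. NBRE matches stood at 4.8% and 2.6% with iTreg+PBS replicate 1 and at 1.6% and 1.0% with replicate 2, and T-box matches at 2.8% and 2.6% against 1.0% and 1.2%. NF-kB matches stood at 0.6% to 1.4%. TCF/LEF matches stood at 11.2% to 15.0%, near the 13.3% of all shared regions and below the 18.6% of the 500. AP-1 matches stood at 13.4% and 37.8% with iTreg+PBS replicate 1 and at 3.4% and 2.8% with replicate 2, so that their share near that of all shared regions was not stable. The RUNX, NBRE and T-box shares were thus higher where iTreg+PBS replicate 1 had chosen the regions. So was the STAT5-type share, at 18.2% and 21.2% against 11.8% and 10.8% with replicate 2. The STAT5-type, NFAT and STAT6-type shares nevertheless kept their side with either library. NF-Y matches (CCAAT) went the other way. They stood at 19.2% and 18.4% with iTreg+PBS replicate 1 and 44.0% and 46.4% with replicate 2, against 20.6% of all shared regions. These choices share libraries with each other and with the 500, and why the libraries differ was not tested.

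The regions were also placed by gene lists of the cell types in question. Within 100 kb of a coding start, 421 of the 43066 shared regions so placed were among the 500, or 0.978%, and the share near each gene list is read against this. Of the 199 shared regions nearest to 29 genes of the regulatory T cell programme, among them Foxp3, Il2ra and Ctla4, none was among the 500. Both iTreg+PBS percentiles were above both iTreg+IL-4 percentiles in 6.53% of the 199, against 11.9% of all shared regions so placed. A region that lost its peak with IL-4 was not a shared region and could not be counted here. The study describes the promoter and other regions of Foxp3 as closed by IL-4. None of the 500 was nearest to Th17 genes (104 shared regions), T cell identity genes (276) or histone deacetylase and sirtuin genes (43). Regions were placed by nearest coding start only, so a region in an intron of Il23r, an IL-23 receptor gene, was counted at Il12rb2. With so low a share among all regions, a list of this size without any region is not shown to differ from the other shared regions.

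The list with the most for its size was Th1 and interferon, with 5 of 180 shared regions (2.78%) and 15.6% with the groups apart in this direction, and with a median group difference of 0.69 percentage points against 0.066 over all shared regions so placed. Near Il12rb2, which encodes the IL-12 receptor chain of Th1 cells, lay 2 of the 5. The region at chr6:67424882-67425241, in an intron of Il23r and 48.9 kb upstream of the start of Il12rb2, had percentiles of 28.7 and 32.8 without IL-4 and 9.7 and 4.9 with it. Of the bases in its window, 70.5% were soft-masked. The other, at chr6:67399536-67400095, 23.6 kb upstream, had 65.9 and 69.5 against 55.4 and 57.7. They were 2 of 14 shared regions at that gene, whose median group difference was 0.85, so most of the locus did not follow.

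At the promoter of Nkg7, a membrane protein of cytotoxic granules, the region at chr7:43436329-43437256 had percentiles of 59.9 and 60 without IL-4 and 46.7 and 37.1 with it, and was the only shared region nearest to that gene. A region 1.1 kb from the start of Ifng, the gene of the Th1 cytokine interferon-γ (chr10:118442001-118442291), had 46.3 and 51.3 against 38.3 and 26.4. The region in an intron of the IL-18 receptor gene Il18r1 (chr1:40469721-40470306) had 68.9 and 71.2 against 61.3 and 60.3, and its window held STAT5-type, RUNX and NFAT matches. Ifng and Il18r1 lay outside the naming rule and were named to complete the 5. In all 5 regions the falls kept the groups apart, as selected. None of the 500 rising regions was near a gene of this list, where 411 of the 43066 shared regions so placed were rising ones, too few for this to show a difference. The list was drawn up with earlier results of these data known, and a count of 5 carries no test.

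Activation factors had 6 of 322 shared regions (1.86%), with 14.6% of them apart in this direction, close to the 14.3% apart in the other. The region nearest to a start site was at the promoter of Nfatc1, an NFAT factor of activated T cells, with percentiles of 70.6 and 67.6 without IL-4 and 59.3 and 57.7 with it. Near Irf8, an interferon regulatory factor, were 2 regions, and the higher-scoring (chr8:120757069-120758221) had 14.7 and 17.8 against 4.9 and 4.9. The region 87.0 kb upstream of Nr4a3, which encodes an Nr4a receptor induced by antigen receptor signals (chr4:47957836-47958423), had 24.3 and 37.9 against 12.3 and 14.7, and all of its window was soft-masked. Near Tnfaip3, an inhibitor of NF-kB signalling, the region at chr10:18987235-18988192 had 36.9 and 36.3 against 19.2 and 27.4. The remaining region was near Rel, an NF-kB subunit gene, with 44.9 and 50.3 against 25.7 and 37.1. Nfatc1 and Rel lay outside the naming rule and were named after their values were seen, to complete the 6. Within 50 kb, 3 of the 6 were left.

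The other lists had at most 2 of the 500, with shares on either side of the 0.978% of all. The naive and quiescence genes had 2 of 352 shared regions (0.568%), TGF-β signalling 1 of 223 (0.448%), IL-2 and STAT5 1 of 132 (0.758%) and other lineages 1 of 38 (2.63%). Near the naive and quiescence genes, a region in an intron of Foxp1, a forkhead factor of naive T cells (chr6:99301835-99303279), had 55.7 and 55.7 without IL-4 and 39.9 and 37.1 with it. It was 1 of 53 shared regions nearest to Foxp1, of which 9 had the groups apart in the other direction and 4 in this one. The region near Txnip, a glucose uptake inhibitor gene (chr3:96564436-96564948), had 41.7 and 48.3 against 32.8 and 27.4. The region near Il2 (chr3:37171019-37171291), the gene of the T cell growth factor, lay 45.2 kb upstream of its start with 29.3 and 30.9 against 10.6 and 18.3, and all 6 shared regions nearest to Il2 had a median group difference of 4.19. The region near Nedd4l, a ubiquitin ligase that acts on Smad proteins, had 20.5 and 22.4 against 7.1 and 11.2 and was the only one for TGF-β signalling.

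The Th2 and Th9 list had 1 of 124 shared regions among the 500 and 5 among the 500 rising regions, which held 411 of the 43066 shared regions so placed. The region that fell was 46.5 kb upstream of Il1rl1, the IL-33 receptor gene (chr1:40382729-40383389), with 63.9 and 66.3 without IL-4 and 52.7 and 50.8 with it. Of the 9 shared regions nearest to Il1rl1, 3 had the groups apart in this direction and 1 in the other, and their group differences ranged from -21.9 to 13.4 percentage points with a median of 3.45. In this list 27.4% of the shared regions had the groups apart in the rising direction, against 13.6% of all shared regions so placed, and 8.06% in the falling direction.

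Among genes of other lineages, a region 21.2 kb upstream of Cd8a, the coreceptor gene of CD8 T cells (chr6:71352021-71352522), had percentiles of 14.7 and 24.7 without IL-4 and 3.5 and 3.3 with it, with heights of 37, 22, 23 and 17. It was the only shared region nearest to Cd8a. Peaks within 1 kb of a start site of Cd8b1 were called in all 4 libraries, and those of Cd8a only in replicate 1 of each group. The cells had been sorted as naive CD4+ T cells, a gate meant to leave out CD8 cells, and whether a share of them remained was not tested.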

How the data were processed

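ATAC-seq libraries, 2 of iTreg+PBS and 2 of iTreg+IL-4 cultures, were grouped by the treatment in the sample labels. Per the labels and the methods of the study, the authors mapped paired reads to mm10 with Bowtie2 (2.2.5), kept mapped pairs and called peaks in each library with MACS2 (2.1.2), and bedtools (2.16.2) is named in the submitters' processing notes. Duplicate removal, correction for the offset of transposase insertions and the caller's settings are not given in the sources used here, and their effect on heights and positions was not tested. The lists carry no column names. The 2 numbers that the authors deposited beside each position were taken, from their range and form, as the −log10 of a q-value and as the height of a pileup signal in whole fragments, which the authors had not scaled for depth. Read numbers are unknown, so values were ranked within a library only.

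Peaks sharing at least 1 base were merged. A region's percentile in a library was that of its highest peak among the regions called in all 4, with ties at their mean rank. Score, members and the mirror set of rising regions were computed as described in the report. Distances are from the centre of the merged region to GENCODE M21 start sites, and 200-base windows came from RefSeq GRCm38, searched for 29 motifs on both strands. Lower-case bases of that file were counted as soft-masked. Python 3.11.15, numpy 2.4.6, pandas 2.3.3, scipy 1.17.1 and matplotlib 3.10.9 were used, and merging, scoring and motif search were tested on simulated data. Intervals are at 95% by Wilson's method.

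The regions, the 11 gene lists and the motifs were chosen with earlier results of these data known. No test was run, because the regions were chosen on the contrast itself and 2 libraries against 2 allow no two-sided permutation p below 0.333. Regions named were the 10 highest scores, up to 3 per gene list within 100 kb, those at the genes with most regions and the 3 on each side of the threshold. Ifng, Il18r1, Nfatc1 and Rel were added after their values were seen. Sequences shown were the highest-scoring of these outside untranslated regions. Alternatives ranked the other column, averaged the libraries, ranked in whole lists, changed the lists or the overlap, left out each library, used the replicate number as a block, or changed windows, distances and the number of regions. Comparisons of motif shares away from start sites, outside repeats, at a similar mean percentile and by pair of libraries were chosen after seeing the data.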

Additional observations from a re-analysis of the deposited data

How the results depend on the processing

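Which regions make up the 500 depended strongly on the processing, for causes not tested except where noted. Of the 500, 355 were chosen again by −log10 q, 396 with lists of equal length, 332 where a peak had to cover 50% of the region, 142 with mean percentiles, 120 with percentiles in the whole list and 98 from the upper 50% of each list, which drops most low peaks by construction. Leaving out 1 library kept 34 to 156, with 34 without iTreg+PBS replicate 1. The count of regions with both iTreg+PBS percentiles above both iTreg+IL-4 percentiles, 5749, became 24440 with mean percentiles, where only the means had to differ, 1975 in the whole list, 2983 in the upper 50%, and 12539 to 17690 without 1 library, where fewer values had to be in order. The share within 1 kb of a start site became 5.6% with mean percentiles, 15.4% by −log10 q, 8.8% in the whole list, 25.2% in the upper 50%, and 1.8% to 15.8% without 1 library. It was 8.8% within 500 bases and 18% within 2 kb, by construction.

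With the replicate block, that is the smaller of the differences within each replicate number, 255 of the 500 were kept, 13650 regions had both differences above 0, and 10.0% of the regions so chosen were within 1 kb. Same-numbered libraries deviated together from their group means (r = 0.564, Spearman's rho = 0.515 across regions), a hint that the labels do not explain.

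Of 226 alternative values, nearly all of them shares or counts that cannot change sign, 173 stayed within their limits and 53 moved. Of the 174 motif values, 26 moved, 19 of them with the 500-base window, which holds more matches by construction. Over the windows, numbers of regions and subsets tried, but not the choices by pair of libraries, the ratio of falling to all shared regions ranged from 1.52 to 1.93 for STAT5-type, 0.417 to 0.718 for STAT6-type, 1.4 to 2.02 for RUNX, 1.25 to 1.65 for NFAT, 1.22 to 1.48 for TCF/LEF, 1.90 to 3.09 for NBRE and 1.59 to 3.48 for T-box, and crossed 1 for NF-kB (0.638 with the 250 highest scores, to 2.87), AP-1 (0.75 to 1.19) and CTCF (0.121 to 1.06), among others. By pair of libraries, RUNX, TCF/LEF, NBRE, T-box and AP-1 also fell below their shares in all shared regions, as the report gives. Depth is unknown and its effect was not tested. Ranks were coarse at the low heights of these regions: in iTreg+PBS replicate 2, heights of 27 and 28 stood at percentiles of 34.6 and 36.3.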
